A study of Mus musculus with 12 samples.

Results

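Transcript levels were measured in cultured HM1 cells with and without a knockdown of St3gal3. HM1 is an established mouse ovarian cancer cell line, grown here outside the animal. The 3 control libraries are titled as HM1 cells with a control short hairpin RNA, and their genotype is labelled wild type. The 3 knockdown libraries are titled as HM1 cells with a short hairpin RNA against St3gal3. They are 6 of the 12 libraries of the series, chosen by their titles, and the other 6 are tumors of the same 2 lines (3 control, 3 knockdown), used below only for comparison. No treatment, time point or added cytokine is named for the cultures. The number and sequence of the hairpins, and whether a line is 1 clone, are not given in the labels, and neither is whether the 3 samples of a group were separate cultures, so a p-value here reflects how far these samples scatter, and that scatter may be technical. Of 56061 genes listed, 9892 were compared: those with a listed length of at least 200 bases and a mean of at least 5 TPM over the 6 libraries. TPM is a gene's length-scaled share of a library. Nearest to the level threshold were Bicd1 inside it, at a mean of 5 TPM, and Poli outside it, at 4.998 TPM.

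St3gal3 encodes a sialyltransferase of the Golgi apparatus, which takes sialic acid from its activated form, CMP-sialic acid, and links it by an alpha-2,3 bond to galactose at the ends of glycans on glycoproteins and glycolipids. Sialic acid caps change how surface proteins fold, turn over and bind lectins, and immune cells carry receptors of the Siglec family that recognise them. The series title concerns tumor immunity and resistance to immunotherapy, and the culture comparison asks what the knockdown changes in the cancer cells when no host cells are present.

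Defining transcripts of host cell types were at or near 0 in the cultures. All 8 markers of T and natural killer cells, all 6 of B and plasma cells and all 6 of endothelial cells stayed under 1 TPM in each of the 6 libraries. Of 8 fibroblast markers 7 did so, of 5 erythroid markers 3 and of 6 skeletal muscle markers 5. Their highest means were 0.707 TPM for Pdgfra, 1.55 for Hba-a2 and 1.98 for Mylpf. Of 10 myeloid markers, 9 stayed under 1 TPM. The exception was Cd68, a lysosomal membrane glycoprotein, at 14.1 ± 1.44 TPM in control and 17.0 ± 0.674 in knockdown (SD, n = 3 each, as for every ± below). Keratins of simple epithelium were abundant (Krt8 at a mean of 2047 TPM), whereas the epithelial cadherin gene Cdh1 was at 0.0233 ± 0.0153 and 0.0567 ± 0.0503 TPM and 6 of 10 epithelial and ovarian tumor markers stayed under 1 TPM. The 4 that passed the level threshold were Krt8, Krt18, Krt19 and Msln (mesothelin). The mesenchymal filament gene Vim was at 6222 ± 467 and 6167 ± 590 TPM. Libraries had 12629 to 13145 genes at 1 TPM or more, and mitochondrially encoded genes held 2.77 to 3.06% of all TPM. Depth is unknown because TPM does not keep it.

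St3gal3 itself fell in the knockdown cells. Its levels were 9.59, 12.5 and 12.9 TPM in control libraries 1 to 3 and 1.52, 1.25 and 1.83 TPM in knockdown libraries 1 to 3. The 2 groups were far apart, and the knockdown mean was 13.1% of the control mean. The log2 change, knockdown minus control on log2(TPM + 1), was -2.32 (SE 0.172, adjusted p = 0.00511, limma with Benjamini-Hochberg adjustment over the 9892 genes). St3gal3 passed the level threshold through its control libraries alone. The call was lost, at nearly the same change, without control library 2 (-2.27, limma adjusted p = 0.114) or without knockdown library 1 (-2.32, limma adjusted p = 0.0619), and also after quantile normalization (-2.67, limma adjusted p = 0.271).

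**Figure D1:**
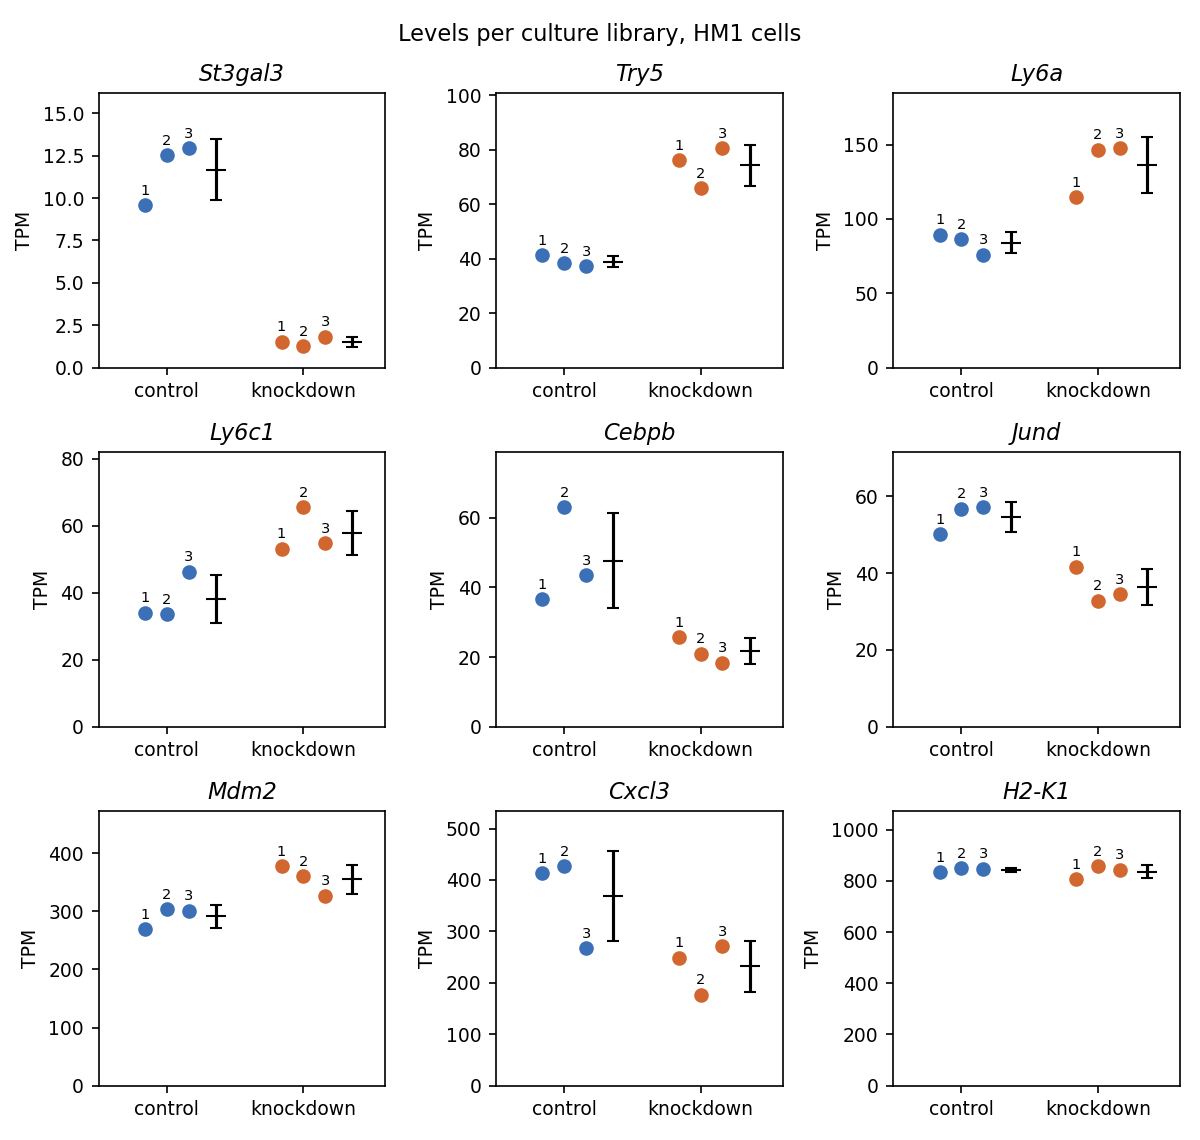
TPM per library (vertical axes from 0, each on its own scale) of 9 genes in control (blue) and knockdown (orange) HM1 cultures; numbers are the library numbers, and the black bar is the mean with its SD (n = 3). St3gal3 and Try5 separate the groups and were called, Ly6a, Ly6c1, Cebpb, Jund and Mdm2 separate them without being called, and Cxcl3 and H2-K1 overlap.

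Beyond the target, 1 gene rose and none fell at an adjusted p under 0.05. Called genes were 1 higher and 1 lower (St3gal3) of 9892, each 0.0101% of the genes compared. At an unadjusted p under 0.05, 185 genes (1.87%) were higher and 135 (1.36%) lower, in all 3.23% of the genes. All 3 knockdown values lay above all 3 control values for 488 genes (4.93%) and below them for 236 (2.39%). The surplus of higher over lower genes followed the scaling: 57.8% of the genes at an unadjusted p under 0.05 were higher as deposited, 43.1% after median-of-ratios scaling and 44.8% after quantile normalization. The median change of all genes was 0.02 on the log2 scale as deposited and 0.00 under either scaling.

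The called gene was Try5, a pancreatic-type trypsinogen gene. Its control libraries stood at 41.3, 38.3 and 37.2 TPM and its knockdown libraries at 76.2, 65.9 and 80.5 TPM. Every knockdown value was well above every control value, with a log2 change of 0.91 ± 0.0970 (SE, adjusted p = 0.0468 by limma). This call was at the edge of the threshold. It was lost without control library 2 or 3 (limma adjusted p = 0.210 and 0.229) and without knockdown library 1 or 3 (0.162 and 0.182), and also under median-of-ratios scaling (0.290), while the change itself stayed between 0.85 and 0.99 on the log2 scale in every alternative run. Other trypsin genes had overlapping levels: Try4 was at 6.95 ± 0.753 TPM in control and 6.63 ± 0.876 in knockdown, and Prss2 at 9.11 ± 0.567 and 9.90 ± 1.13. Of 30 genes for exocrine pancreas enzymes listed, 6 passed the level threshold and Try5 was the 1 called. Cela1, an elastase, was at 49.2 ± 2.95 and 46.9 ± 1.23 TPM, and Ctrb1, a chymotrypsinogen, at 22.7 ± 2.87 and 21.2 ± 1.28. Trypsin genes are similar in sequence, so the split of reads between them is uncertain. Genes that neighbour St3gal3 in the RefSeq order of GRCm38.p6 were close to their control levels: the log2 change was -0.02 for Atp6v0b, -0.01 for Dph2, -0.09 for Ipo13 and -0.04 for Kdm4a.

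**Figure D2:**
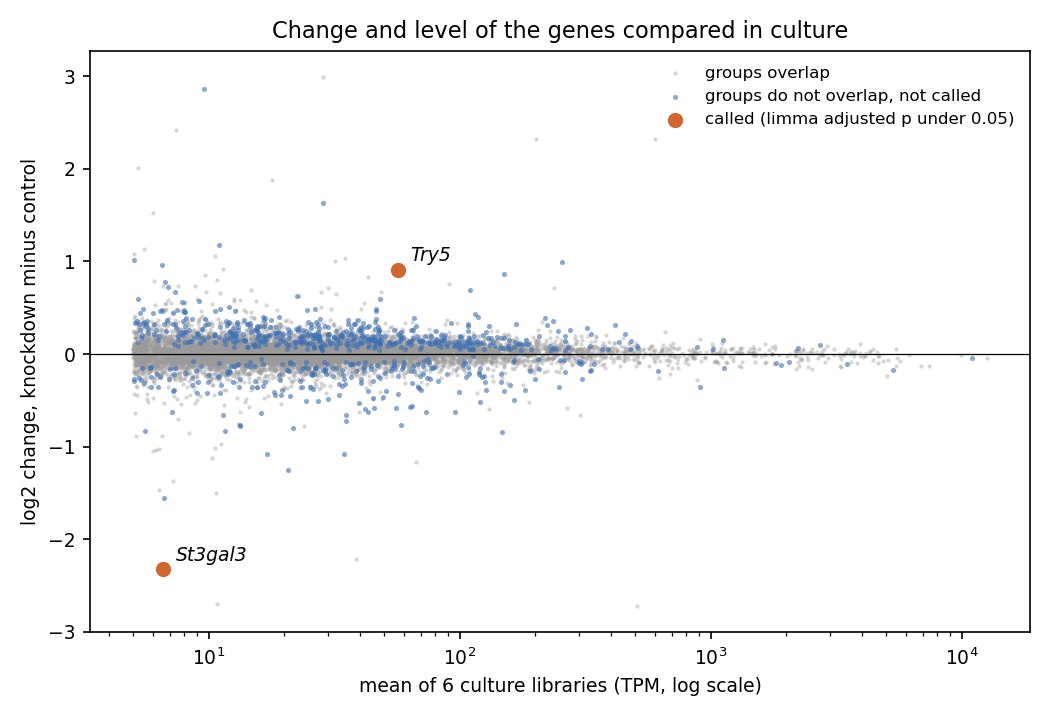
Log2 change (knockdown minus control, vertical axis) against the mean of the 6 culture libraries (TPM, log axis) for the 9892 genes compared; grey points are genes whose groups overlap, blue points do not overlap but were not called, and orange points were called. The cloud is narrow around 0, and St3gal3 and Try5 are the 2 called genes.

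Most genes moved very little. The median absolute change was 0.07 on the log2 scale, and for 95% of genes it was under 0.28. A change of at least 1.5-fold was measured for 47 genes upward and 45 downward, and of at least 2-fold for 15 and 17. Of these 32 genes, 24 carried predicted, clone, pseudogene or identifier names, against 955 of all 9892 genes compared. Overlapping groups were found for 23 of the 32 and separated groups for 9, beside 7.32% separated among all genes. Of the 32, those with regular names and separated groups were 5: St3gal3, Ppp1ccb, Slc15a4, Cebpb and Carnmt1. The 95% interval of the change lay inside 1.5-fold in both directions for 8751 genes (88.5%) and inside 2-fold for 9680 (97.9%). Precision depended on the level. The median SE was 0.164 for the 1870 genes at 5 to 10 TPM, 0.125 for the 5236 genes at 10 to 50 TPM and 0.0857 for the 2786 genes at 50 TPM or more.

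Among the genes that separated the groups without reaching the adjusted threshold, 2 members of the Ly6 family of GPI-anchored surface proteins were higher in the knockdown. Ly6a, the stem cell antigen Sca-1, was at 89.5, 86.3 and 76.0 TPM in control and at 115, 147 and 148 TPM in knockdown. The groups did not overlap, and the log2 change was 0.69 (SE 0.114, limma adjusted p = 0.436). Ly6c1 was at 34.1, 33.7 and 46.3 TPM against 53.2, 65.5 and 54.8, a log2 change of 0.60 ± 0.140 (SE, adjusted p = 0.700 by limma). Ly6e, the most abundant family member, was at 1134 TPM in control and 1138 in knockdown, with a log2 change of 0.01. The other 11 Ly6 genes in the tables were under the level threshold. Ly6 genes lie in a cluster of similar copies, so reads may have been split between them.

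Other genes above their control values had more mixed backing. Nup107, a scaffold subunit of the nuclear pore, was at 177, 202 and 188 TPM against 243, 263 and 239, a log2 change of 0.39 ± 0.0739 (SE, adjusted p = 0.436 by limma). Mdm2, the ubiquitin ligase that restrains p53, was at 269, 304 and 301 TPM against 377, 360 and 327, a log2 change of 0.28 (limma adjusted p = 0.921). Bhmt, which remethylates homocysteine, had a log2 change of 0.47, Col16a1, a fibril-associated collagen, of 0.60, and the transporter gene Abca13 of 0.43, each with separated groups and a limma adjusted p of at least 0.765. Col16a1 was at 3.59, 3.73 and 4.61 TPM in control, and it passed the level threshold through its knockdown libraries alone. Ppp1ccb and mt-Nd3 had the largest separated increases with regular names, 1.63 and 0.99 (limma adjusted p = 0.436 for both). With a replicate block the log2 change of mt-Nd3 was called at the same size (limma adjusted p = 0.0114). Both genes have near-identical copies, so their levels are uncertain, and the assignment of reads between copies was not tested. Ppp1ccb resembles the phosphatase gene Ppp1cc, which was at 157 TPM in control and 143 in knockdown while Ppp1ccb was at 13.7 and 43.4. Nuclear copies of mitochondrial genes exist, and mt-Co3 ranged from 0.25 to 340 TPM across the 6 libraries. The other 6 mt-Nd genes had log2 changes from -0.15 to 0.01.

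Other genes lay below their control values. Slc15a4, a lysosomal histidine and peptide transporter used by endosomal Toll-like receptor signaling, was at 41.8, 18.0 and 30.1 TPM in control and at 9.93, 13.8 and 10.6 in knockdown, with a log2 change of -1.25 ± 0.270 (SE, adjusted p = 0.631 by limma). Its control libraries were widely spread. Cebpb, a bZIP transcription factor of inflammatory and stress responses, was at 36.6, 63.0 and 43.6 TPM against 25.8, 20.9 and 18.4, a log2 change of -1.08 ± 0.198 (SE, adjusted p = 0.436 by limma). Its partner Cebpg was at 14.1 and 13.9 TPM. Jund, a member of the AP-1 family, was at 50.1, 56.7 and 57.1 TPM against 41.7, 32.8 and 34.4, a log2 change of -0.58 ± 0.111 (SE, adjusted p = 0.436 by limma), whereas Jun and Junb had log2 changes of -0.09 and -0.07. Uqcrfs1, the Rieske iron-sulfur subunit of respiratory complex III, was at 142 ± 5.91 and 99.4 ± 13.0 TPM, a log2 change of -0.52 ± 0.0976 (SE, adjusted p = 0.436 by limma). Further separated genes of this direction were Carnmt1 (-1.08), which methylates carnosine, Rab22a (-0.80), an endosomal GTPase, Tmem238 (-0.77), Tmem160 (-0.72), Rgmb (-0.66), a BMP co-receptor, Tmem158 (-0.63), Glrx5 (-0.63), needed for mitochondrial iron-sulfur clusters, Scand1 (-0.63) and the exosome subunit gene Exosc6 (-0.59), all on the log2 scale.

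No other gene of sialylation was called. Of 20 sialyltransferase genes, 9 passed the level threshold and St3gal3 was the 1 called. The other 8 had a log2 change whose 95% interval lay inside 1.5-fold. St3gal6, another alpha-2,3-sialyltransferase, was at 24.3 ± 1.78 TPM in control and 28.2 ± 2.40 in knockdown (log2 change 0.21, groups apart, limma adjusted p = 1). St3gal4, whose enzyme acts on similar acceptors, was at 60.3 ± 3.75 and 56.6 ± 3.77 TPM, with a log2 change of -0.09. St3gal1 was at 44.0 ± 7.98 and 39.9 ± 6.71 TPM, St3gal2 at 30.3 ± 4.34 and 28.6 ± 4.16, and St3gal5, which makes the ganglioside GM3, at 81.2 ± 6.39 and 79.5 ± 5.05. On the TPM scale, St3gal3 was therefore among the lower of the 9 sialyltransferases compared even in control cells, at 11.7 ± 1.82 TPM, with St6gal1 lower at 7.47 ± 1.12.

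Genes that supply sialic acid were close to their control levels. Of 15 genes for its synthesis, transport and removal, 8 were compared, with a median log2 change of 0.01 and every 95% interval inside 1.5-fold. Groups were separated for 2 of the 8, in opposite directions, beside 7.32% of all genes compared. Nans, the sialic acid synthase gene, was at 98.6 ± 2.78 and 103 ± 2.55 TPM, a log2 change of 0.06. Cmas, which makes CMP-sialic acid, was at 59.0, 63.2 and 62.1 TPM in control and at 53.1, 50.5 and 52.3 TPM in knockdown, with a log2 change of -0.24 (SE 0.0751, unadjusted p = 0.0126, limma adjusted p = 1). The bifunctional enzyme gene Gne was at 31.5 ± 2.87 and 30.2 ± 2.17 TPM, the Golgi transporter gene Slc35a1 at 21.2 ± 1.19 and 21.3 ± 1.79, and the lysosomal sialidase gene Neu1 at 14.7 ± 1.14 and 15.0 ± 0.281. Npl, Neu4 and Cmah were under 1 TPM in every library.

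Enzymes that build the glycans St3gal3 acts on, and proteins that carry or read them, were not called either. This held for the 14 genes of galactosyl and N-acetylglucosaminyl transfer compared (median log2 change -0.04), which include the transporters Slc35a2 and Slc35a3 and the chaperone C1galt1c1. It also held for the 7 fucosylation genes (0.01) and the 13 genes of N-glycan trimming and branching (-0.03). The 11 oligosaccharyltransferase genes (0.03) and the 8 genes of the conserved oligomeric Golgi complex (0.02) were not called either. Galectins bind beta-galactosides, and the 5 genes compared in their list include Lgals3bp, the gene of a galectin-binding protein. Of these 5, Lgals1 was at 4974 ± 215 and 4727 ± 202 TPM and Lgals9 at 28.1 ± 1.48 and 30.5 ± 1.95. Among the 9 integrin genes compared, 8 had a negative change, whereas 57.7% of all genes had a positive one, and the integrin median was -0.14 on the log2 scale. The largest was Itgav, the alpha-V chain, at 21.0 ± 2.87 and 15.5 ± 2.31 TPM (log2 change -0.41, groups apart, limma adjusted p = 1). Itgb1 was at 124 ± 5.85 and 124 ± 9.44 TPM. The median deviation of the integrin list from the 6-library mean was -0.09, 0.11 and 0.24 in control libraries 1 to 3. In knockdown libraries 1 to 3 it was 0.01, 0.02 and -0.20, so the list was not low in each knockdown library. Surface receptors often described as sialylated were also close to their control values: Egfr had a log2 change of 0.19, Met of -0.03 and Cd44 of -0.01, none called.

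MHC class I genes were expressed, and those compared were close to equal in the 2 lines. H2-K1, an MHC class I heavy chain, was at 833, 849 and 847 TPM in control and at 807, 857 and 844 TPM in knockdown (log2 change -0.01, 95% interval -0.14 to 0.11). H2-D1 was at 379 ± 18.2 and 367 ± 11.8 TPM and their light chain gene B2m at 1072 ± 28.6 and 1122 ± 32.6. Of 19 class I and peptide-loading genes compared, none was called, 11 were positive, the median was 0.06 on the log2 scale, and for 18 the 95% interval lay inside 1.5-fold. Interferon-stimulated genes were low. Only 10 of 37 in the tables reached the level threshold, and none was called. Isg15 was at 1.22 ± 0.126 and 1.45 ± 0.575 TPM, and Ifit1 at 0.113 ± 0.0252 and 0.137 ± 0.0473. Of 26 interferon-gamma-induced genes, 4 were compared and none was called, and 2 of the 4 had a 95% interval inside 1.5-fold. Irf1 had a log2 change of 0.04. Less precise were Socs1, at -0.25 (95% interval -0.62 to 0.12), and Nlrc5, at 0.17 (95% interval -0.28 to 0.61). The 15 genes of interferon receptors and JAK-STAT signaling had a median of 0.00 and every 95% interval inside 1.5-fold.

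Checkpoint ligands and chemokines were not called. Cd274, which encodes PD-L1, was at 1.02 ± 0.150 TPM in control and 0.927 ± 0.153 in knockdown, and the T cell attractant gene Cxcl10 at 1.08 ± 0.166 and 0.903 ± 0.300. Both were under the level threshold and were not tested. Of 17 chemokine and cytokine genes compared, 10 had a 95% interval inside 1.5-fold, and log2 changes ran from -0.66 (Cxcl3) to 0.49 (Ccl9, at 5.61 ± 3.59 and 7.86 ± 4.41 TPM). Csf2, which encodes GM-CSF, was at 38.6, 37.0 and 38.3 TPM against 30.1, 31.1 and 33.0, with separated groups and a log2 change of -0.27 ± 0.0846 (SE, adjusted p = 1 by limma). Cxcl3, a neutrophil attractant, was at 413, 427 and 268 TPM against 248, 177 and 271. Control library 3 fell inside the knockdown range, and the log2 change was -0.66 (SE 0.219, limma adjusted p = 1). Ccl2 was at 50.1 ± 16.7 and 48.2 ± 15.0 TPM.

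Signaling and stress lists held a few separated genes and no further call. Among 20 immediate early genes compared, 17 had a negative change with a median of -0.09 on the log2 scale, and among 17 genes of ERK feedback 15 did, with a median of -0.10. Of all genes, 57.7% had a positive change. The median of the immediate early genes ranged from -0.13 to -0.03 and that of ERK feedback from -0.16 to -0.01 over the alternatives, both weakest without knockdown library 3. Besides Jund, the immediate early gene Ier3 separated the groups at 334 ± 16.1 and 278 ± 20.3 TPM (log2 change -0.27, limma adjusted p = 0.921). Targets of p53 had values in both directions: Mdm2 lay above its control values, while the cyclin G1 gene Ccng1 was at 81.1 ± 2.02 and 67.5 ± 2.57 TPM (log2 change -0.26, limma adjusted p = 0.917) and the stress cytokine gene Gdf15 at 12.9 ± 1.30 and 9.35 ± 0.994 TPM (-0.42, limma adjusted p = 1). Trp53 itself had a log2 change of 0.06. Of 20 genes of the unfolded protein response, 17 were negative with a median of -0.06, led by Xbp1 at 44.3 ± 2.42 and 36.7 ± 3.49 TPM (log2 change -0.27, limma adjusted p = 1). Hspb1, a small heat shock protein gene, was at 144 ± 4.50 and 111 ± 18.2 TPM (-0.39, limma adjusted p = 1).

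Growth lists had small differences. Of 32 MCM and replication genes, 28 had a positive change with a median of 0.06 on the log2 scale, of 24 ribosome biogenesis genes 23 did (0.06), and of 34 proteasome genes 31 did (0.08). Over all genes compared, 57.7% were positive. None was called, and the 95% interval lay inside 1.5-fold for 32, 23 and 34 of them. Cdc6, which loads the replicative helicase, was at 35.9 ± 1.25 and 41.0 ± 0.261 TPM. The ribosome biogenesis median turned to -0.01 without control library 3. Its median deviation from the 6-library mean was lowest in control library 3 (-0.20) and knockdown library 2 (-0.12), as was that of the proteasome genes (-0.16 and -0.05). Myc was at 180 ± 5.49 and 186 ± 8.28 TPM. The mesenchymal regulators Twist1 and Twist2 separated the groups, at 40.1 ± 4.31 and 33.5 ± 1.19 TPM and at 44.7 ± 4.08 and 35.9 ± 2.82 TPM, without being called (limma adjusted p = 1 for both). They are 2 of 15 epithelial-mesenchymal transition genes compared, which had a median log2 change of -0.01, with 6 positive and 9 negative. Of the 15, 3 separated the groups, all below control, beside 7.32% of all genes in either direction.

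Along 2 axes, a control and a knockdown library shared deviations. After the group means were removed, control library 1 and knockdown library 3 deviated together across genes (r = 0.56), as did control library 3 and knockdown library 2 (r = 0.46). These were the 2 highest values for a control with a knockdown library, and the lowest was -0.43. Removing group means forces negative correlation among libraries of the same group, so same-group pairs offer no comparison here. Before that step, r was 0.983 to 0.987 for same-group pairs and 0.978 to 0.992 for a control with a knockdown library. These correlations run across genes, which are not independent, and serve as description. The first pair differed from the other 4 libraries by gene length. For the 334 genes of 8000 bases or more, the median deviation from the 6-library mean was -0.25 in control library 1 and -0.26 in knockdown library 3 on the log2 scale, against 0.13 in each of the other 4. For genes under 1000 bases it was 0.03 and 0.08 in these 2 libraries and between -0.05 and 0.00 in the others.

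**Figure D3:**
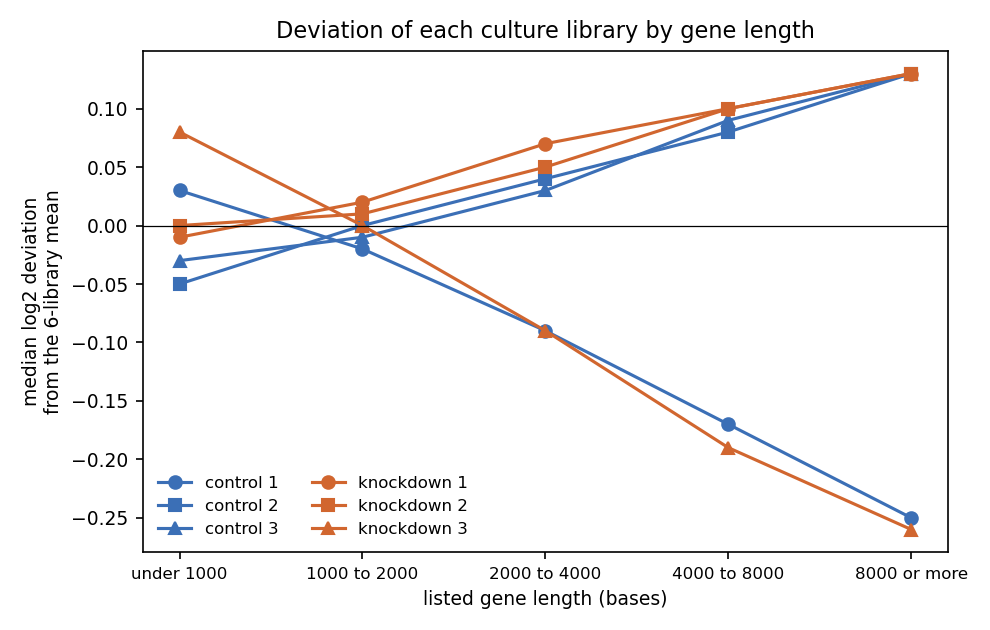
Median log2 deviation from the 6-library mean (vertical axis) for genes of 5 length classes (horizontal axis, bases), with 1 line per library, control in blue and knockdown in orange. Control library 1 and knockdown library 3 descend with length to -0.25 and -0.26, and the other 4 libraries reach 0.13.

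The second pair stood out by hypoxia genes, which respond to low oxygen through HIF transcription factors. The median deviation of the 15 hypoxia genes compared was 0.61 in control library 3 and 0.42 in knockdown library 2, and between -0.31 and -0.19 in the other 4. Glycolysis genes followed at 0.30 and 0.20. Ndrg1, a HIF target, was at 48.4, 51.4 and 142 TPM in controls 1 to 3 and at 47.9, 86.0 and 45.3 TPM in knockdowns 1 to 3. Bnip3, a mitophagy receptor gene induced by HIF, was at 67.7, 60.6 and 203 TPM against 59.4, 168 and 60.5. The high libraries of both genes were the same pair, 1 in each group. The knockdown comparison of the hypoxia list therefore had a median of -0.08 with all libraries, 0.20 without control library 3 and -0.28 without knockdown library 2, and no direction could be given. Without control library 3 and knockdown library 2, the log2 change was -2.16 for St3gal3 and 0.96 for Try5, and no gene was called with 2 libraries a group. Without control library 1 and knockdown library 3, St3gal3 was called with a change of -2.53 (limma adjusted p = 0.0485) and Try5 was not (0.89, limma adjusted p = 0.338). Both pairs were chosen after the values were seen. Culture density, RNA quality and sequencing batch are not in the labels used here, and their part in these deviations was not tested.

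**Figure D4:**
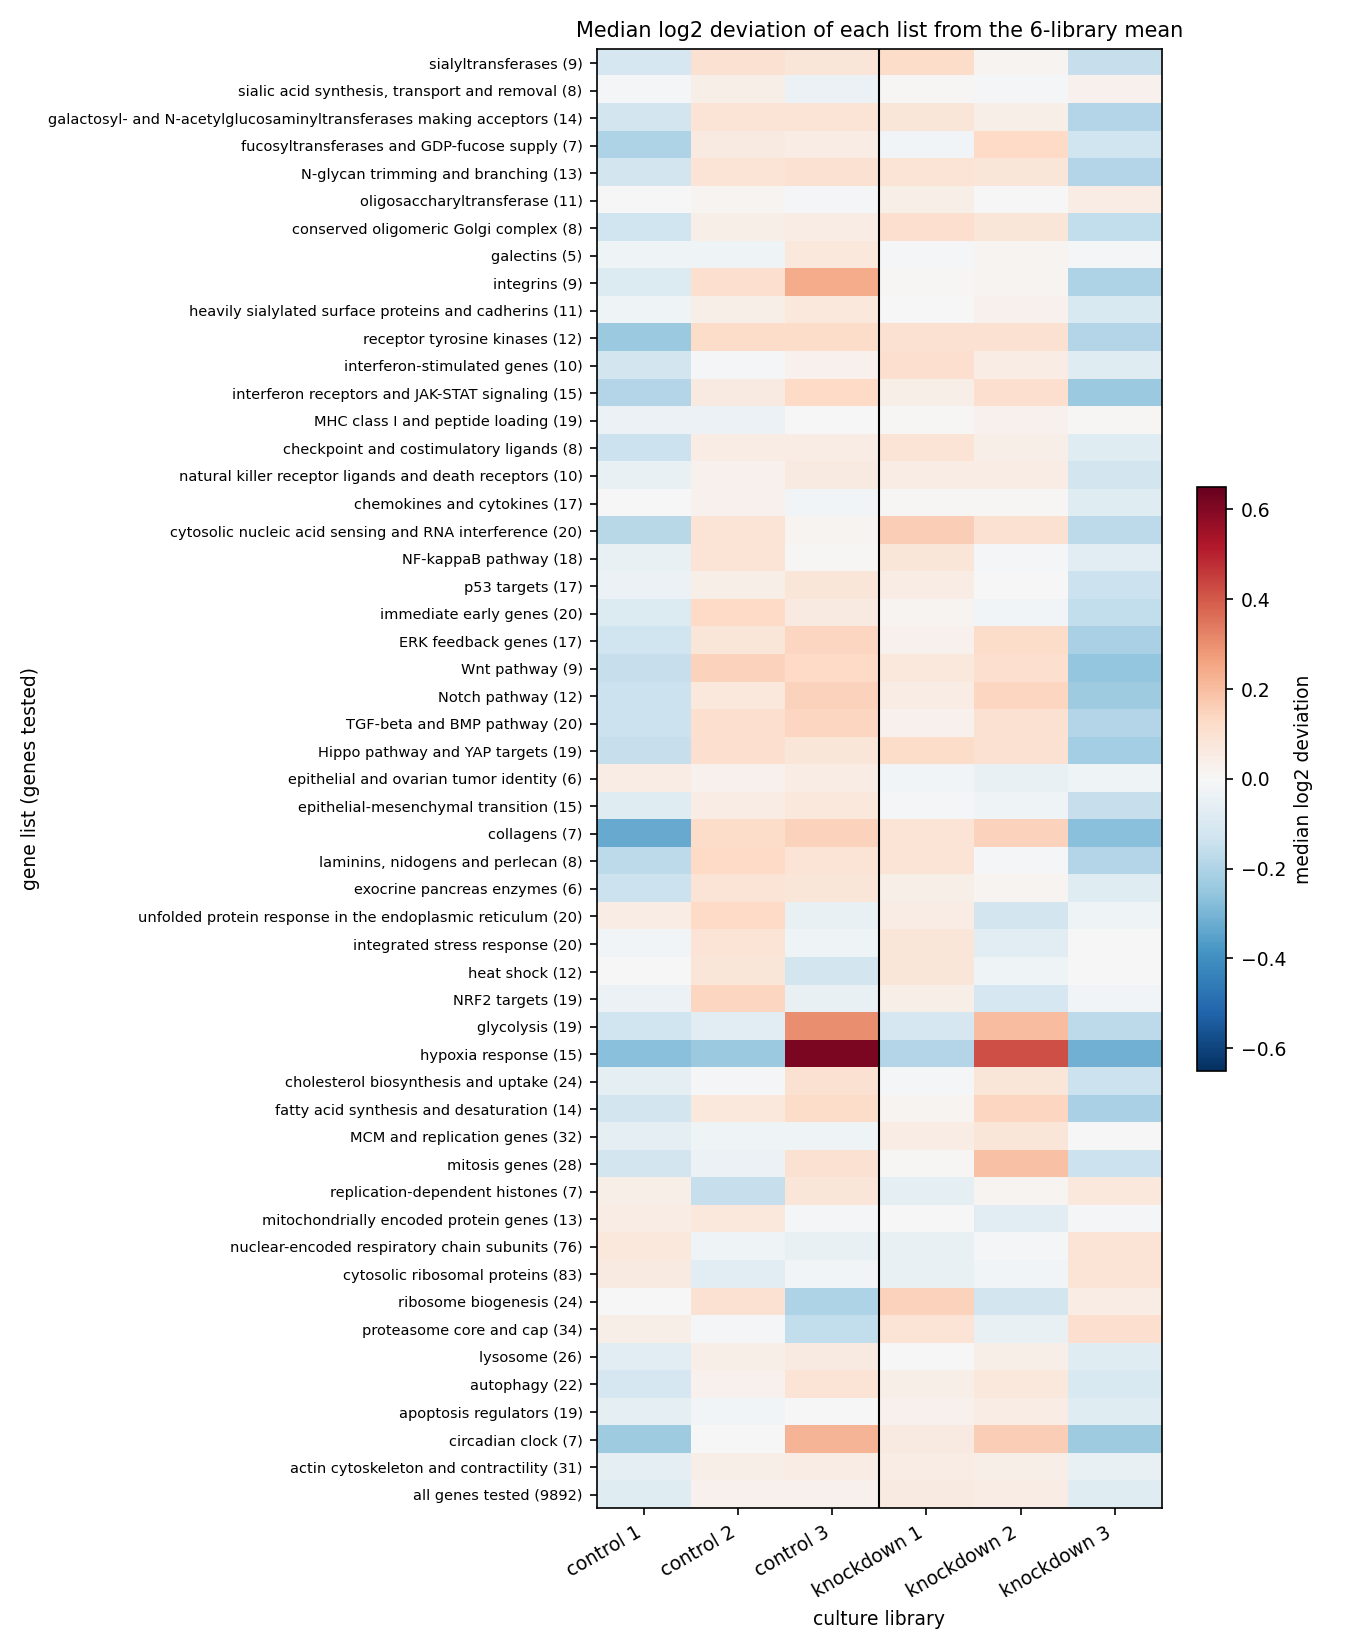
Median log2 deviation from the 6-library mean (colour) for each gene list with at least 5 genes compared (rows, number of genes in parentheses) in each culture library (columns; the black line divides control from knockdown). The strongest colours are the hypoxia row in control library 3 (0.61) and knockdown library 2 (0.42), and no row is uniformly one colour in control and the other in knockdown at that strength.

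The same lines were also profiled as tumors. Tumor tables also hold host cells, and in them fewer cells of a type and less RNA per cell cannot be told apart. Culture and tumor tables were normalized separately, so changes were compared, and a level in culture and a level in tumors are not on a shared scale. Over 9606 genes in both sets of tables, 51.7% had the same sign of change in culture and tumors, and of the 292 genes at an unadjusted p under 0.05 in culture 50.7% did. Of these 9606 genes, 167 were called in tumors. Of the 167, 112 (67.1%) had the same sign of change in culture. In culture, 1 of the 167 was called (St3gal3), 7 (4.19%) had an unadjusted p under 0.05, against 3.04% of all 9606, and 146 had a 95% interval inside 1.5-fold. Class I and peptide-loading genes had a median log2 change of 0.06 in culture and 0.83 in tumors, and the 10 interferon-stimulated genes 0.07 and 0.57. The collagens compared had medians of -0.01 and -0.44, and the laminin list -0.02 and -0.43.

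**Figure D5:**
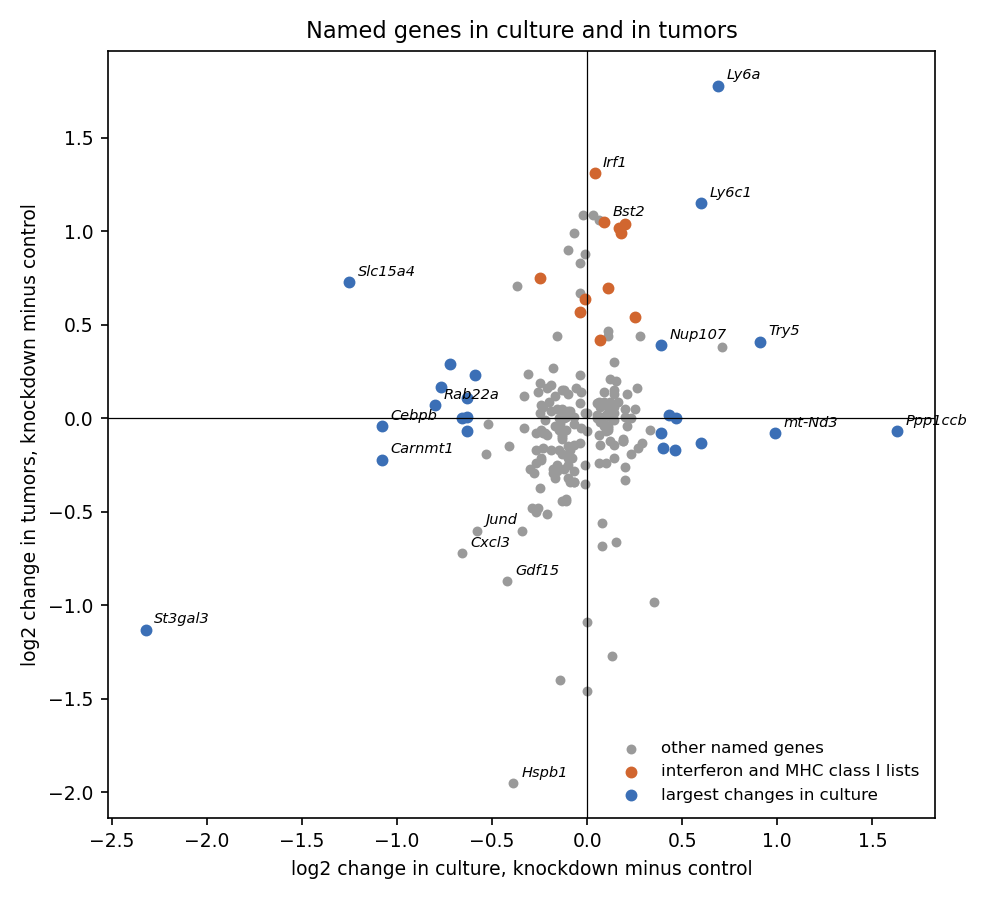
Log2 change (knockdown minus control) in culture (horizontal axis) and in tumors (vertical axis) of the named genes present in both sets of tables: the largest changes in culture in blue, interferon and MHC class I lists in orange, others in grey. Interferon and class I genes lie between -0.25 and 0.25 in culture and between 0.42 and 1.31 in tumors, St3gal3 is low in both, and Ly6a and Ly6c1 are high in both.

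The difference between the 2 effects was tested in 1 fit of all 12 libraries. It was called for 12 genes, 0.125% of 9606, with a more positive tumor effect for 8 and a more negative one for 4, and this count was unstable, at 3 with a replicate block, 4 without control culture 3 or without knockdown tumor 1, 5 without knockdown culture 1, 6 without control culture 2 or knockdown tumor 2, 7 without knockdown culture 2 and 34 without knockdown tumor 3. Apart from St3gal3, less reduced in tumors, these genes had culture log2 changes from -0.10 to 0.35, none called. Bst2, the antiviral tetherin, was at 93.2 ± 2.98 and 99.3 ± 6.05 TPM in culture (log2 change 0.09) and changed by 1.05 in tumors. Tapbp, which loads class I molecules, was at 38.7 ± 1.93 and 40.4 ± 1.93 TPM, the nonclassical class I gene H2-T23 at 37.3 ± 3.72 and 36.1 ± 3.12, the inflammasome protease gene Casp1 at 15.2 ± 1.46 and 14.4 ± 0.211, and the nucleotide hydrolase gene Samhd1 at 58.5 ± 3.91 and 58.4 ± 7.09. Plac8 was at 54.9, 47.5 and 47.5 TPM against 49.3, 45.5 and 53.4, and Mgst1, a microsomal glutathione transferase gene, at 39.9 ± 2.74 and 37.1 ± 2.06. The genes with a more negative tumor effect were Avil, for an actin-binding protein, at 12.7 ± 1.72 and 12.6 ± 0.719 TPM in culture, the histone gene H2bc4 at 19.9 ± 0.772 and 19.9 ± 0.975, the imprinted gene Phlda2 at 116 ± 3.17 and 123 ± 6.63, and the predicted gene Gm2574 at 4.72 ± 0.211 and 6.28 ± 0.118. Gm2574 was at 4.50, 4.74 and 4.92 TPM in the control cultures, and it passed the level threshold through its knockdown cultures alone. Of the 12 genes, all but St3gal3 and Bst2 were named after their values were seen.

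A few genes that separated the groups in culture also did so in tumors in the same direction, and these were chosen after their values were seen. How many of the 724 genes separated in culture also did so in tumors is not given here. At an unadjusted limma p under 0.05 in culture, 50.7% of genes had the same sign in tumors, against 51.7% of all genes. Of the 167 genes called in tumors, 67.1% had the same sign in culture. In tumors, Ly6a had control values of 164, 245 and 218 TPM and knockdown values of 794, 783 and 571 TPM, a log2 change of 1.78 beside 0.69 in culture (limma adjusted p of the difference = 0.0892). The log2 change of Ly6c1 was 1.15 beside 0.60. Jund was at 182, 117 and 116.4 TPM against 77.2, 79.5 and 115.5, so its groups were barely apart, with a log2 change of -0.60 beside -0.58. The log2 change in tumors was 0.39 beside 0.39 for Nup107, 0.44 beside 0.28 for Mdm2, -0.87 beside -0.42 for Gdf15, -0.50 beside -0.27 for Csf2 and -0.22 beside -0.24 for Cmas. Try5, called in culture, had a log2 change of 0.41 in tumors beside 0.91. Its control tumors were at 1.24, 1.18 and 2.33 TPM and its knockdown tumors at 2.36, 1.86 and 2.97 TPM, with overlapping groups. Cebpb had a log2 change of -0.04 in tumors, with values from 31.2 to 78.9 TPM and overlapping groups, Ppp1ccb of -0.07, mt-Nd3 of -0.08 and Uqcrfs1 of -0.03, while Slc15a4 had 0.73, opposite in sign to its -1.25 in culture.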

How the data were processed

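RNA sequencing tables of 6 culture libraries were compared, 3 control and 3 knockdown, with groups and numbers from the titles. The authors deposited 1 table of TPM per sample, per the file headers. The tools fastp, HISAT and RSEM and the build GRCm39 appear in the submitters' processing notes, with neither versions nor settings. Whether counting used strand is not stated in the labels used here. RSEM divides reads between similar transcripts by estimation, so levels of near-identical genes are uncertain. Depth is unknown, so no counting interval is given. No genome of that build was used and no coordinates or sequences are printed.

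The test was limma 3.58.1 (R 4.3.3) on log2(TPM + 1), with empirical Bayes moderation that was robust and followed the trend of variance with level, two-sided, over the 9892 genes, with Benjamini-Hochberg adjustment and calls at an adjusted p under 0.05. Fold changes on that scale understate changes of low genes. Intervals are limma's at 95%. The difference between tumors and culture was an interaction term over 12 libraries. The tables hold no counts, so no count test was run. The procedure was tested on simulated data with independent noise for each gene and library. That simulation held no deviations shared between libraries, so it does not cover those described above.

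The 54 gene lists, 8 marker lists and members were chosen with earlier results of these data known. Genes were named by a rule: St3gal3; called genes; the 12 highest and 12 lowest changes with separated groups, an unadjusted p under 0.01 and no predicted or clone name; the 10 most abundant; up to 3 per list by smallest p; and 22 fixed genes. Many of these are only counted, and 1 is not reported here. Further genes are marked as chosen after their values were seen, or describe a list, family or library. Same-numbered libraries did not deviate together (r from -0.43 to -0.05), so numbers were not used as pairs. Alternatives were pseudocount, filters, scalings, a replicate block, other variance models, and leaving libraries out.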

Additional observations from a re-analysis of the deposited data

Results flagged for a closer look

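For 12 genes the knockdown effect in tumors differed from that in culture by the interaction test (limma adjusted p from 0.00984 to 0.0366). The difference, tumor effect minus culture effect on the log2 scale, was 1.19 for St3gal3, which was reduced less in tumors (knockdown tumors 7.28, 5.87 and 5.76 TPM, in tables normalized apart from the cultures) than in culture. It was 0.97 for Bst2, 1.00 for Tapbp, 0.87 for H2-T23, 1.06 for Casp1, 0.88 for Samhd1, 1.10 for Plac8 and 1.00 for Mgst1, genes whose culture changes lay between -0.10 and 0.09. It was -1.45 for Avil, -1.33 for Gm2574, -1.09 for H2bc4 and -0.76 for Phlda2. Of these, Gm2574 passed the level threshold through its knockdown cultures alone. Tumors contain host cells that the cultures lack: the summed level of 10 myeloid markers was 1484 to 1887 TPM in the 6 tumor libraries and 13.7 to 18.2 TPM in the 6 cultures, in tables normalized separately. Its part in these differences was not tested.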

How the results depend on the processing

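St3gal3 kept its direction in every alternative in which it was tested, with changes from -2.85 (pseudocount 0.1) to -2.16. Its call was lost with quantile normalization (-2.67, limma adjusted p = 0.271) and without both control culture 3 and knockdown culture 2 (-2.16). Leaving out 1 library also lost the call for control culture 2 (limma adjusted p = 0.114) and for knockdown culture 1 (limma adjusted p = 0.0619). With single libraries left out, the change of St3gal3 ranged from -2.44 to -2.24. A mean of at least 20 TPM leaves St3gal3 out, so that setting has no value for it.

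Genes called higher numbered 1, against 4 at a mean of at least 1 TPM, 2 without a level filter, 2 with all lengths, 3 with a replicate block, and 0 at a mean of at least 20 TPM, with median-of-ratios scaling, quantile normalization, plain empirical Bayes, or without control culture 3 and knockdown culture 2. Single libraries left out gave 0 to 7. Genes called lower numbered 1, against 2 with all lengths or the block, and 0 at a mean of at least 20 TPM, with quantile normalization, or without control culture 3 and knockdown culture 2. Single libraries left out gave 0 to 2, the most without control culture 1. Genes called only in some settings were predicted genes, pseudogenes, an identifier, Polr2m, Ppp1ccb and mt-Nd3.

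The interaction count of 12 became 20 at a mean of at least 1 TPM and 3 with the block, and 4 to 34 with single libraries left out. The block pairs libraries by number, which the labels do not explain: same-numbered libraries deviated with r = -0.20, -0.05 and -0.43.

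For the 209 other named genes compared, 3898 of 3927 alternative values moved by less than 1 SD or kept their call, and 34 genes changed sign somewhere. Of these genes, Try5 alone was called with the main settings, so for the others keeping a call means staying uncalled. That share therefore does not measure how stable the changes were. List medians changed sign somewhere for 43 of 56. Leaving out pairs of libraries and leaving out predicted names were added after seeing the data. Depth, which would set the precision for low genes, is unknown.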
